A study of Mus musculus with 8 samples.

Results

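The lysosome was examined in hand-picked pancreatic islets through 43 genes that encode its membrane proteins, its cathepsins and other hydrolases, and the proton pump that acidifies it. The members were given by name, and all 43 were found by symbol among the 55487 Ensembl gene identifiers of the deposited tables. Islets came from C57BL/6J mice, labelled female, that ate a diet with 60 kcal% fat for 2 weeks from the age of 10 weeks. There were 5 libraries from mice with an intact gene for insulin-degrading enzyme (Ide+/+) and 3 from mice without it (Ide-/-). The labels do not describe the Ide allele, and nothing in them says how many mice gave each islet sample, so the p-values measure the spread between these samples, which may be technical in part. The comparison asked how islet transcripts differ without this enzyme, a metalloprotease that cleaves insulin, in mice under metabolic stress.

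Lysosomes break down proteins, glycans and lipids that arrive by endocytosis or autophagy. Their hydrolases work at acid pH, which the vacuolar proton pump maintains with a membrane part (V0) and an ATP-splitting part (V1). In the endocrine cells of islets the same pump also acidifies hormone granules, and lysosomes degrade surplus insulin granules. Macrophages are rich in lysosomes, and the acinar cells that surround islets also carry lysosomal enzymes next to their zymogen granules.

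Many lysosomal genes carry a CLEAR element, the sequence that the transcription factors TFEB and TFE3 recognise, whose core is TCACGTG. The windows below are shown because this element is the known shared feature of these promoters. RefSeq promoters (GRCm38.p6, 250 bases before to 50 after the transcript start) were found for 36 of the 43 members. The core, searched on both strands, lay in 11 of these 36 genes (30.6%) and in 1160 of 27025 genes with a promoter (4.29%). The shorter palindrome CACGTG, which lies within the core, was present in 13 of the 36 (36.1%) and in 8.09% of all. Of the 15 members with a promoter that were lower in Ide-/- islets in the comparison given further on, 3 held the core (Ctsd, Lgmn and Glb1), and of the 21 that did not pass its test 8 did. The windows of 30 bases run 5′ to 3′ on the strand of the gene, with the core or its reverse complement in capitals.
Ctsd, cathepsin D (chr7:142387908-142387937, minus strand): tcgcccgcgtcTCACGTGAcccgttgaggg
Lgmn, legumain (chr12:102439125-102439154, minus strand): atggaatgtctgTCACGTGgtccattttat
Glb1, beta-galactosidase (chr9:114401017-114401046, plus strand): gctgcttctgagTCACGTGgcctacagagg
Lamp1, a membrane glycoprotein (chr8:13159096-13159125, plus strand): ataTCACGTGgtccagcgccCACGTGAtgc
Mcoln1, a calcium channel (chr8:3500462-3500491, plus strand): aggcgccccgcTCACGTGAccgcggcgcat
Atp6v1a, the catalytic subunit of the pump (chr16:44139373-44139402, minus strand): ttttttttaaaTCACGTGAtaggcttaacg
The first 3 belong to genes that were lower in Ide-/- islets and the last 3 to genes that did not pass the test, so the core was present in both kinds. A match of letters is a description and does not show that a factor binds.

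The libraries held 7143424 to 33371662 counts, and the Ide-/- libraries were the shallower ones (at most 17445976). The targeted gene Ide had 256 to 765 counts in Ide+/+ libraries and 4 to 7 in Ide-/- libraries. Against the labels, Y-linked transcripts were present in 7 libraries (1062 to 5447 counts of 4 genes), and only Ide+/+ replicate 1 had none, with 692 counts of Xist where the others had at most 10. Ide+/+ replicate 1 also stood apart by mitochondrial transcripts at 0.512% of counts, against 4.92% to 9.43% in the other 4 Ide+/+ libraries and 9.81% to 28.2% in Ide-/- libraries. A list of 28 acinar markers took 22.3% to 38.8% of counts in Ide+/+ and 0.648% to 1.39% in Ide-/- libraries. The beta cell markers were present in every library, and of the 11 tested none passed the test with edgeR (1 at an unadjusted p under 0.05).

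Transcripts of 17 lysosomal members, among them 7 proteases and 4 glycosidases, were lower in Ide-/- islets on counts scaled by TMM, a method that sets libraries level on the bulk of their genes, while 29 of the 43 members took the other sign on log2(TPM + 1), where TPM is the length-corrected share of a gene among all transcripts. On that TPM scale the median log2 fold change of all genes tested, Ide-/- over Ide+/+, was 0.50, against −0.01 with TMM. Of the 43 members 33 lay below that TPM median, and the share of all genes that changed sign is not given here. With TMM, 17 of 43 members (39.5%) were lower at an adjusted p under 0.05, against 10.6% of all 16266 genes tested. No member was higher, against 10.4% of all genes. DESeq2 gave 25 members lower (13.5% of all genes) and limma-voom 17 (10.4%), and neither gave a member higher. The 28 members with an unadjusted p under 0.05 in edgeR all had a negative fold change. All 43 passed the low-count filter. The median log2 fold change, Ide-/- over Ide+/+, was −0.69 for the members and −0.01 for all genes tested. Among genes that averaged 10 CPM or more (counts relative to the TMM-scaled library size), 16 of 39 members (41.0%) and 14.0% of all genes were lower. In 28 members (65.1%) every Ide-/- library lay below every Ide+/+ library, which held for 15.6% of all genes.

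By role, 15 of the 26 genes of hydrolases, lipid handling and progranulin were lower. The same held for 1 of the 5 genes of membrane and trafficking and 1 of the 12 pump genes. Of all genes tested 10.6% were lower, so the number of calls among the pump genes was near that share. Markers of some other cell types were also lower in Ide-/- libraries, and those of others were mostly not. All 28 acinar markers were lower, with a median log2 fold change of −6.32, and 16 of 19 tested macrophage markers (20 listed) were lower, with a median of −1.93. Of 10 duct markers 8 were lower (median −2.16), as were all 3 tested of 7 lymphocyte markers (median −2.46). Lower too were 1 of 8 fibroblast and stellate markers, 1 of 6 alpha cell markers and 0 of 8 endothelial markers (0 at an unadjusted p under 0.05, edgeR). In CPM every Ide-/- library lay below every Ide+/+ library for 28 acinar, 16 macrophage, 6 duct and 3 lymphocyte markers (15.6% of all genes). In TPM this held for 27, 4, 4 and 1 in that order (2.80% of all genes), so for most macrophage markers this separation depended on the scale. An overlap in TPM does not show that a fall was absent. The macrophage markers summed to 429 to 814 CPM in Ide+/+ and 114 to 197 CPM in Ide-/- libraries. Most of these sums came from the antigen presentation genes Cd74, H2-Ab1, H2-Aa and H2-Eb1, so they are not a measure of macrophages alone. Cd74 averaged 272 CPM in Ide+/+ and 62.4 CPM in Ide-/- libraries, where Adgre1 averaged 3.38 and 0.445 CPM and Csf1r 4.99 and 1.48 CPM. The defining markers were detected in every library except Itgam, which had 0 counts in Ide+/+ replicate 1 and Ide-/- replicate 3. The part of any of these cell types in the members' falls was not tested. In bulk islets, fewer cells of a type and less RNA per cell cannot be told apart. The count of lower members depended on single libraries. It was 20 without Ide+/+ replicate 1 (13.3% of all genes), 11 without Ide+/+ replicate 4 (6.88%), and 6, 8 and 5 without Ide-/- replicates 1, 2 and 3 (5.71%, 4.75% and 5.00%). The genes of cathepsins B, C, D and L and of progranulin were called in each of these and in the other fits that left out a library. On log2(TPM + 1) values, tested with limma, only Ctsc and Ctsl of them were called lower, and the progranulin gene Grn was near 0 (−0.10, adjusted p = 0.796).

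**Figure D1:**
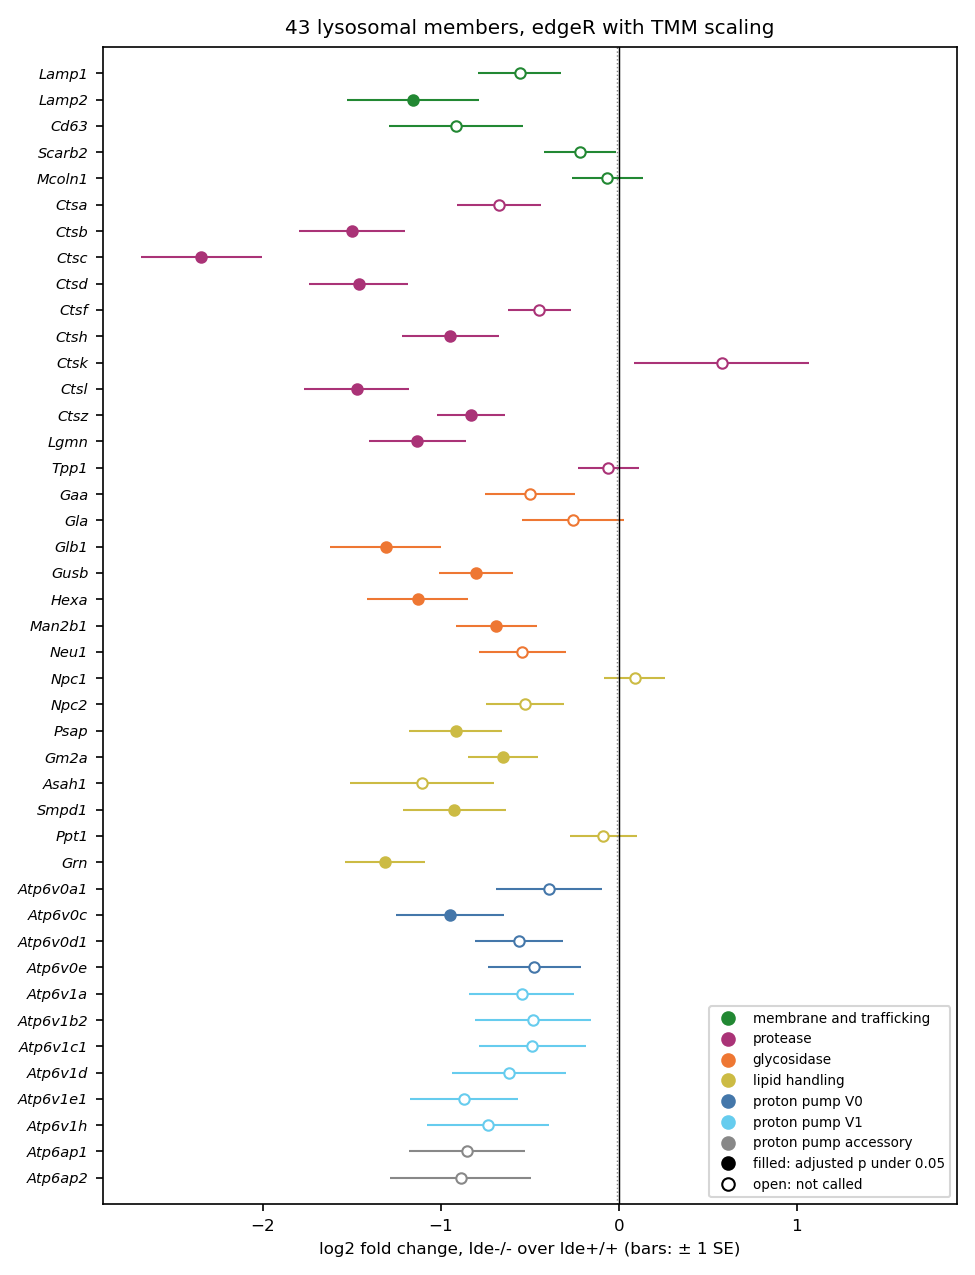
Log2 fold change of each of the 43 members (x axis, Ide-/- over Ide+/+, TMM scaling, bars ± 1 SE), coloured by role, with filled points for an adjusted p under 0.05 and a dotted line at the median of all genes. The 17 filled points all lie left of 0 and most are hydrolases, with Ctsc farthest at −2.35. On log2(TPM + 1) values, where the median of all genes was 0.50, 29 of the members took the other sign.

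The proteases held the largest falls, with 7 of 11 lower and a median of −0.95, although 5 of the 11 (Ctsh, Ctsz, Ctsa, Ctsf and Tpp1) took the other sign on TPM values. Ctsc encodes cathepsin C, a dipeptidyl peptidase that activates serine proteases of immune cell granules (ENSMUSG00000030560; GRCm38 chromosome 7, 88278085 to 88310888, plus strand). Its level was 47.8, 21.4, 19.3, 26.6 and 42.6 CPM in Ide+/+ replicates 1 to 5 and 4.84, 6.79 and 6.97 CPM in Ide-/- replicates 1 to 3. The groups lay far apart, with Ide+/+ replicates 1 and 5 well above the other 3, and the log2 fold change was −2.35 ± 0.34 (SE, edgeR adjusted p = 0.00116). Ctsc was the only member that fell by more than the median of the macrophage markers, and it was also called lower on log2(TPM + 1) values, at −1.11 (adjusted p = 0.00649, limma).

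Ctsb encodes cathepsin B, a cysteine protease abundant in acinar cells and macrophages (ENSMUSG00000021939; chromosome 14, 63122462 to 63145923, plus strand). It stood at 266, 135, 136, 161 and 204 CPM over Ide+/+ replicates 1 to 5 against 67.7, 73.4 and 49.7 CPM over Ide-/- replicates 1 to 3. Each Ide-/- value was below the lowest Ide+/+ value, and the log2 fold change was −1.50 ± 0.30 (SE, edgeR adjusted p = 0.00569). Ctsl, the gene of the cysteine endopeptidase cathepsin L (ENSMUSG00000021477; chromosome 13, 64359337 to 64370890, minus strand), had 135, 63.7, 60.8, 104 and 96.9 CPM over Ide+/+ replicates 1 to 5 against 29.8, 31.4 and 38.4 CPM over Ide-/- replicates 1 to 3. Its 3 Ide-/- values were close together and below all of the others (log2 fold change −1.47 ± 0.30 SE, edgeR adjusted p = 0.00597). Ctsd, the gene of the aspartyl protease cathepsin D (ENSMUSG00000007891; chromosome 7, 142375911 to 142388038, minus strand), had 147, 80.1, 77.2, 109.6 and 78.97 CPM over Ide+/+ replicates 1 to 5 against 42.8, 34.1 and 30.2 CPM over Ide-/- replicates 1 to 3. Ide+/+ replicates 1 and 4 were the high ones here, and again the groups did not overlap (log2 fold change −1.46 ± 0.28 SE, edgeR adjusted p = 0.00462). Within the fits that left out a library, Ctsb, Ctsl and Ctsd stayed between −1.619 and −1.319, −1.593 and −1.296 and −1.616 and −1.275 in that order. On log2(TPM + 1) values they were at −0.71, −0.68 and −0.48 (limma adjusted p = 0.0714, 0.0472 and 0.212).

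Ctsh, Ctsz and Lgmn fell by less and shared another profile over the Ide+/+ libraries, with the highest level in replicate 5. Ctsh encodes the aminopeptidase cathepsin H and had 7.92, 9.67, 10.2, 8.30 and 17.8 CPM over Ide+/+ replicates 1 to 5 against 4.90, 6.18 and 5.59 CPM over Ide-/- replicates 1 to 3 (log2 fold change −0.95 ± 0.27 SE, edgeR adjusted p = 0.0309). For Ctsz, the gene of the carboxypeptidase cathepsin Z, the values were 36.9, 42.1, 44.4, 43.2 and 54.9 CPM and 25.03, 26.4 and 23.1 CPM (log2 fold change −0.83 ± 0.19 SE, edgeR adjusted p = 0.0119). Lgmn encodes legumain, which cleaves after asparagine and processes other cathepsins. Its level was 17.1, 14.1, 15.96, 13.3 and 29.7 CPM over Ide+/+ replicates 1 to 5 against 8.10, 9.23 and 7.06 CPM over Ide-/- replicates 1 to 3 (log2 fold change −1.13 ± 0.27 SE, edgeR adjusted p = 0.014). In all 3 genes the genotypes did not overlap. None of the 3 calls held without Ide-/- replicate 1 or 3, nor that of Ctsh without Ide-/- replicate 2. On log2(TPM + 1) values Lgmn was at −0.13 (limma adjusted p = 0.751).

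The other 4 proteases did not pass the test. Ctsa, a serine carboxypeptidase that also protects beta-galactosidase and sialidase from breakdown, had a log2 fold change of −0.67 ± 0.24 (SE, edgeR adjusted p = 0.0605), and Ctsf, another cysteine cathepsin, −0.45 ± 0.18 (SE, edgeR adjusted p = 0.0897). Tpp1, which removes tripeptides from proteins, had 34.97, 34.4, 32.3, 30.98 and 29.7 CPM over Ide+/+ replicates 1 to 5 against 35.4, 30.2 and 27.9 CPM over Ide-/- replicates 1 to 3. Its genotypes overlapped and the estimate was near 0, at −0.06 ± 0.17 (SE, edgeR adjusted p = 0.836). Ctsk, the collagen-degrading cathepsin known from osteoclasts, was close to absent, at 0.690 ± 0.421 CPM in Ide+/+ (SD, n = 5) and 1.11 ± 0.310 CPM in Ide-/- libraries (SD, n = 3).

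**Figure D2:**
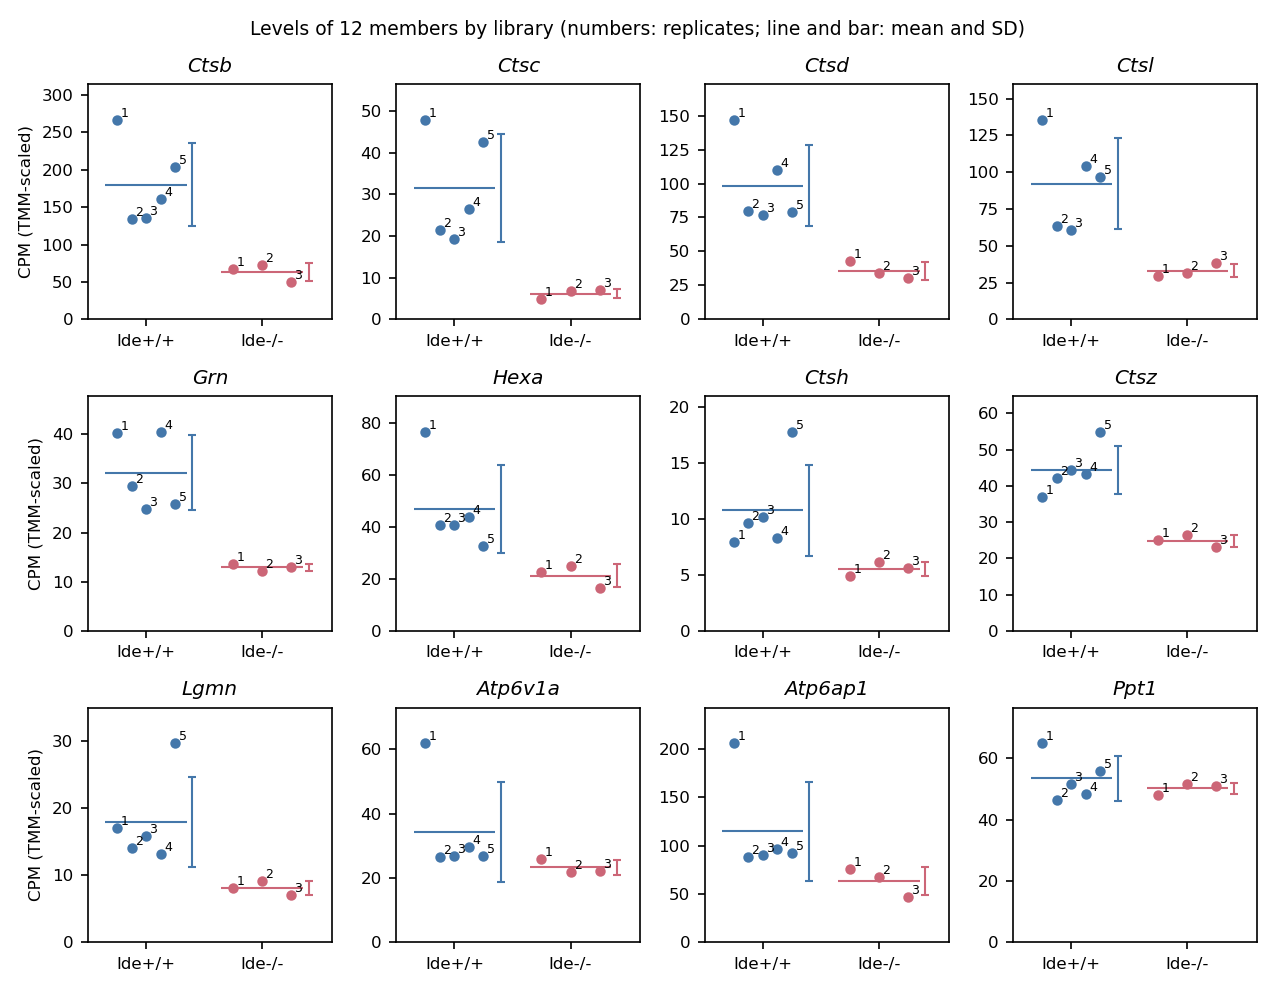
TMM-scaled CPM (y axis, from 0) of 12 members in the 5 Ide+/+ and 3 Ide-/- libraries, with replicate numbers beside the points and the group mean ± SD. The Ide-/- points lie below all Ide+/+ points in every panel except Ppt1, and replicate 5 is the highest Ide+/+ library for Ctsh, Ctsz and Lgmn where replicate 1 is highest for Ctsb, Ctsc, Ctsd, Ctsl, Hexa, Atp6v1a and Atp6ap1; on TPM values Ctsh, Ctsz, Atp6v1a, Atp6ap1 and Ppt1 took the other sign.

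Glycosidases, which trim sugars from glycoproteins, glycolipids and glycogen, had 4 of 7 members lower and a median of −0.69, although 5 of the 7 (Gusb, Man2b1, Gaa, Gla and Neu1) took the other sign on TPM values. Glb1, the beta-galactosidase gene, had 21.1, 10.6, 9.10, 14.4 and 11.9 CPM over Ide+/+ replicates 1 to 5 against 7.24, 5.08 and 3.48 CPM over Ide-/- replicates 1 to 3 (log2 fold change −1.31 ± 0.31 SE, edgeR adjusted p = 0.0134). Hexa, the alpha subunit of the hexosaminidase that degrades GM2 ganglioside, had 76.6, 40.7, 40.7, 43.7 and 32.7 CPM and 22.7, 24.9 and 16.3 CPM (log2 fold change −1.13 ± 0.29 SE, edgeR adjusted p = 0.0173). In both, Ide+/+ replicate 1 was the highest library and the genotypes did not overlap. On log2(TPM + 1) values Glb1 was at −0.33 (limma adjusted p = 0.406) and Hexa at −0.18 (limma adjusted p = 0.672). Gusb, the beta-glucuronidase gene, had 37.7, 23.1, 23.8, 27.7 and 25.6 CPM over Ide+/+ replicates 1 to 5 against 16.9, 14.7 and 15.7 CPM over Ide-/- replicates 1 to 3, with no overlap (log2 fold change −0.80 ± 0.21 SE, edgeR adjusted p = 0.0182). Man2b1, the lysosomal alpha-mannosidase gene, had 38.3, 23.5, 22.7, 23.9 and 19.8 CPM and 16.9, 14.5 and 16.2 CPM. It lay just inside the threshold (log2 fold change −0.69 ± 0.23 SE, edgeR adjusted p = 0.0496) and was not called in 6 of the 8 fits that left out a library. The Glb1 call was lost without Ide-/- replicate 2 or 3, the Hexa call without Ide-/- replicate 1 or 3, and the Gusb call without any 1 of the Ide-/- libraries. The other 3 did not pass the test: Gaa, the acid glucosidase that degrades glycogen, at −0.50 ± 0.25 (SE, edgeR adjusted p = 0.179), Neu1, the lysosomal sialidase, at −0.54 ± 0.24 (SE, edgeR adjusted p = 0.132), and Gla, alpha-galactosidase A, at −0.26 ± 0.28 (SE, edgeR adjusted p = 0.546).

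Among 8 genes of lipid handling and progranulin 4 were lower, and Psap, Gm2a, Npc2 and Ppt1 took the other sign on both TPM scales and Smpd1 on 1 of them. Grn encodes progranulin, a secreted and lysosomal glycoprotein cut into granulins (ENSMUSG00000034708; chromosome 11, 102430315 to 102437048, plus strand). Its level was 40.2, 29.5, 24.8, 40.5 and 25.9 CPM over Ide+/+ replicates 1 to 5 against 13.6, 12.2 and 13.02 CPM over Ide-/- replicates 1 to 3. The 3 Ide-/- values were within a narrow band below the Ide+/+ values, and the log2 fold change was −1.31 ± 0.22 (SE, edgeR adjusted p = 0.00278). On log2(TPM + 1) values Grn was near 0, at −0.10 (limma adjusted p = 0.796). Psap, the precursor of the saposins that present lipids to hydrolases, had 300.4, 252, 252, 247 and 176 CPM over Ide+/+ replicates 1 to 5 against 148, 138 and 104 CPM over Ide-/- replicates 1 to 3 (log2 fold change −0.92 ± 0.26 SE, edgeR adjusted p = 0.0284). For Gm2a, the GM2 activator, the values were 38.8, 29.7, 26.9, 29.4 and 39.2 CPM and 18.7, 20.9 and 22.9 CPM (log2 fold change −0.65 ± 0.20 SE, edgeR adjusted p = 0.0377). The genotypes stayed apart in all 3 genes. Smpd1, the acid sphingomyelinase gene, had 25.95, 20.5, 18.4, 19.7 and 9.44 CPM over Ide+/+ replicates 1 to 5 against 12.6, 9.11 and 7.79 CPM over Ide-/- replicates 1 to 3. Here Ide+/+ replicate 5 lay within the Ide-/- range (log2 fold change −0.93 ± 0.29 SE, edgeR adjusted p = 0.0412). The calls of Psap, Gm2a and Smpd1 were each lost without Ide+/+ replicate 4 or any 1 of the Ide-/- libraries, that of Gm2a also without Ide+/+ replicate 5, and that of Smpd1 also without Ide+/+ replicate 2 or 3.

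The genes of cholesterol export did not pass the test. Npc2, which hands cholesterol to the membrane protein NPC1, had 114, 79.9, 83.3, 83.6 and 112 CPM over Ide+/+ replicates 1 to 5 against 59.2, 70.00 and 67.7 CPM over Ide-/- replicates 1 to 3 (log2 fold change −0.53 ± 0.22 SE, edgeR adjusted p = 0.105), with no overlap. Npc1 had 6.17 ± 0.358 CPM in Ide+/+ (SD, n = 5) and 6.58 ± 0.206 CPM in Ide-/- libraries (SD, n = 3) and a log2 fold change of 0.09 ± 0.17 (SE, edgeR adjusted p = 0.747). Ppt1, a thioesterase that removes palmitate from proteins, had 53.4 ± 7.32 CPM in Ide+/+ (SD, n = 5) and 50.2 ± 1.84 CPM in Ide-/- libraries (SD, n = 3) and a log2 fold change of −0.09 ± 0.19 (SE, edgeR adjusted p = 0.771). Both of these estimates were small beside those of the cathepsins. Asah1, the acid ceramidase gene, had 166, 46.2, 49.4, 54.2 and 68.3 CPM over Ide+/+ replicates 1 to 5 against 35.2, 36.6 and 35.02 CPM over Ide-/- replicates 1 to 3. Ide+/+ replicate 1 was far above the rest, and the log2 fold change was −1.11 ± 0.40 (SE, edgeR adjusted p = 0.0702). Without that library it was −0.61 and the call was made (adjusted p = 0.0208).

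Of the 5 genes of membrane and trafficking only Lamp2 was called, and the other 4 took the other sign on TPM values. LAMP-2 is a coat glycoprotein of the lysosomal membrane that also takes part in chaperone-mediated autophagy. Lamp2 had 223, 71.3, 71.2, 90.9 and 109.5 CPM over Ide+/+ replicates 1 to 5 against 51.5, 50.2 and 49.96 CPM over Ide-/- replicates 1 to 3, again with Ide+/+ replicate 1 far above the others and no overlap (log2 fold change −1.16 ± 0.37 SE, edgeR adjusted p = 0.0444). Without Ide+/+ replicate 1 it was −0.76 (adjusted p = 0.0139), and the call was lost without Ide+/+ replicate 4 or 5 or any 1 of the Ide-/- libraries. Lamp1, its close relative, had 123, 76.2, 86.4, 121 and 102 CPM and 69.5, 61.7 and 75.8 CPM (log2 fold change −0.56 ± 0.23 SE, edgeR adjusted p = 0.105). Cd63, a tetraspanin of late endosomes, had 452, 142, 152, 211 and 254 CPM over Ide+/+ replicates 1 to 5 against 141, 128 and 116 CPM over Ide-/- replicates 1 to 3 (log2 fold change −0.92 ± 0.38 SE, edgeR adjusted p = 0.101). Neither passed the test, although their genotypes did not overlap. Scarb2, the receptor that brings glucocerebrosidase to the lysosome, and Mcoln1, a calcium channel of its membrane, overlapped between genotypes at −0.22 ± 0.20 (SE, edgeR adjusted p = 0.462) and −0.06 ± 0.20 (SE, edgeR adjusted p = 0.841).

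Among the proton pump genes, 1 of 12 was called, Atp6v0c, which is near the share of all genes called lower (10.6%). All 12 had a negative log2 fold change, with a median of −0.59, but all except Atp6v0c took the other sign on log2(TPM + 1) values. Without Ide+/+ replicate 1 the median was −0.32, and Atp6v0c and Atp6v1e1 were called, where 13.3% of all genes were lower. In the V0 part, Atp6v0c, the proteolipid of the rotating ring, had 203, 111, 107, 118 and 88.6 CPM over Ide+/+ replicates 1 to 5 against 77.97, 70.1 and 46.8 CPM over Ide-/- replicates 1 to 3 (log2 fold change −0.95 ± 0.31 SE, edgeR adjusted p = 0.0452). That call was lost without Ide+/+ replicate 3 or 4 or any 1 of the Ide-/- libraries. Atp6v0e, a small membrane subunit, had 88.7, 42.8, 43.8, 50.2 and 58.3 CPM and 36.6, 41.4 and 44.3 CPM, with overlap (log2 fold change −0.47 ± 0.26 SE, edgeR adjusted p = 0.21). The other 2 V0 members, Atp6v0a1, the large stator subunit, and Atp6v0d1, which links the ring to the rotor, were at −0.39 ± 0.30 (SE, edgeR adjusted p = 0.368) and −0.56 ± 0.25 (SE, edgeR adjusted p = 0.121).

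In the V1 part none of 6 members passed the test with edgeR (1 at an unadjusted p under 0.05). The DESeq2 calls over all 12 pump genes numbered 3, where 13.5% of all genes were lower. Atp6v1e1, a stalk subunit, had 117, 48.7, 49.6, 54.9 and 60.1 CPM over Ide+/+ replicates 1 to 5 against 34.7, 38.9 and 34.6 CPM over Ide-/- replicates 1 to 3 (log2 fold change −0.87 ± 0.30 SE, edgeR adjusted p = 0.0589). Atp6v1b2, the nucleotide-binding B subunit, had 213, 81.2, 87.7, 90.2 and 105 CPM and 81.1, 92.9 and 73.4 CPM (log2 fold change −0.48 ± 0.33 SE, edgeR adjusted p = 0.31). In Atp6v1b2 only Ide+/+ replicate 1 was higher by a wide margin, and Ide-/- replicate 2 lay above Ide+/+ replicates 2 to 4. Atp6v1a, the catalytic A subunit, was 61.8 CPM in Ide+/+ replicate 1, 26.5 to 29.6 CPM in the other 4 Ide+/+ libraries and 21.8 to 26.03 CPM in the Ide-/- libraries. Its log2 fold change was −0.55 ± 0.29 (SE, edgeR adjusted p = 0.204), and −0.23 without Ide+/+ replicate 1. Atp6v1c1, Atp6v1d and Atp6v1h, further subunits of the stalks and of the pump's regulation, lay at −0.49 ± 0.30 (SE, edgeR adjusted p = 0.263), −0.62 ± 0.32 (SE, edgeR adjusted p = 0.185) and −0.74 ± 0.34 (SE, edgeR adjusted p = 0.146).

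Neither of the accessory subunits passed the test with edgeR, and both had an unadjusted p under 0.05. Atp6ap1 had 206, 88.3, 90.5, 96.5 and 92.2 CPM over Ide+/+ replicates 1 to 5 against 75.6, 67.3 and 46.9 CPM over Ide-/- replicates 1 to 3 (log2 fold change −0.85 ± 0.33 SE, edgeR adjusted p = 0.0829). Atp6ap2, also known as the prorenin receptor, had 243, 76.01, 72.5, 96.3 and 79.2 CPM and 66.1, 61.6 and 55.9 CPM (log2 fold change −0.89 ± 0.40 SE, edgeR adjusted p = 0.129). Both were highest by far in Ide+/+ replicate 1 and did not overlap between genotypes. Without that library they stood at −0.54 (adjusted p = 0.0516) and −0.41 (adjusted p = 0.0851).

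**Figure D3:**
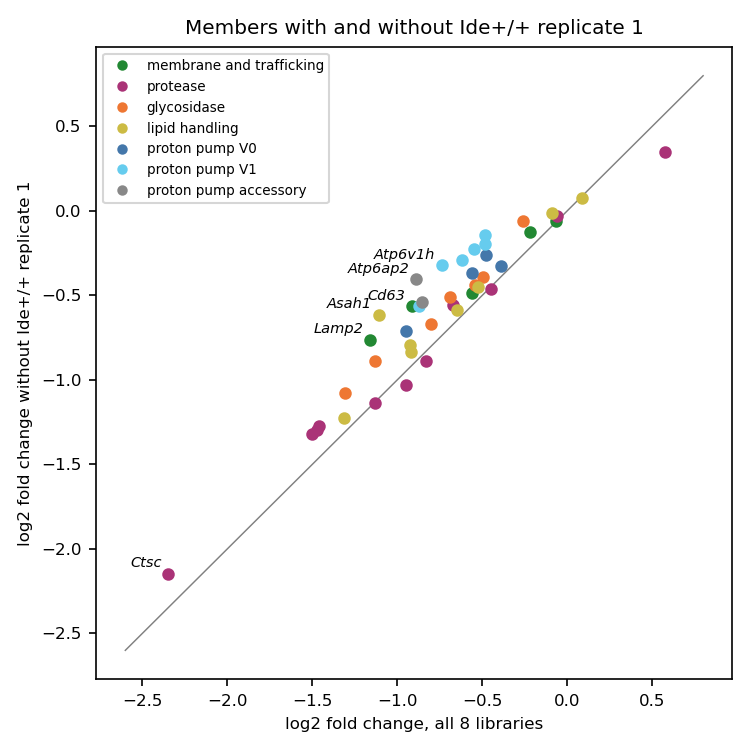
Log2 fold change of each member with all 8 libraries (x axis) and without Ide+/+ replicate 1 (y axis), both Ide-/- over Ide+/+ with TMM scaling, coloured by role, with the line of equality. Most pump genes, Asah1 and Lamp2 lie above the line (Asah1 at −1.11 and −0.61), and Atp6v0a1 lies near it (−0.39 and −0.33). Ctsc is the lowest point in both fits (−2.35 and −2.15). On log2(TPM + 1) values, where the median of all genes was 0.50, 29 of the members took the other sign.

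Members differed in how they ranked over the 5 Ide+/+ libraries, whose acinar share was 38.8%, 22.3%, 22.7%, 34.96% and 35.2% in replicates 1 to 5. The orders described here were chosen after the values were seen, all genes of a library share its scaling factor (0.405 in replicate 1), and no test was made. In 12 members (27.9%) replicate 1 was above 5, 5 above 4, and 4 above both 2 and 3, the order of the acinar share. They were Lamp2, Cd63, Scarb2, Ctsb, Ctsc, Npc2, Asah1, Atp6v0e, Atp6v1b2, Atp6v1c1, Atp6v1d and Atp6v1e1. Of all tested genes 8.42% had this order, as did 17 of 28 acinar markers, 0 of 20 macrophage markers and 0 of 11 beta cell markers. Replicate 5 was instead highest for Ctsh, Ctsz, Lgmn and Gm2a, all 4 of them called lower. These are 9.30% of the members, a smaller share than the 21.1% of tested genes for which that library was highest, and it was highest for 16 of 20 macrophage markers. Lyz2, the macrophage lysozyme gene, reached 39.3 CPM there against 11.6 to 16.4 CPM in the other Ide+/+ libraries. Replicate 1 was the highest library for 33 members (76.7%), for 32.1% of tested genes, for 24 of 28 acinar and for 10 of 11 beta cell markers.

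**Figure D4:**
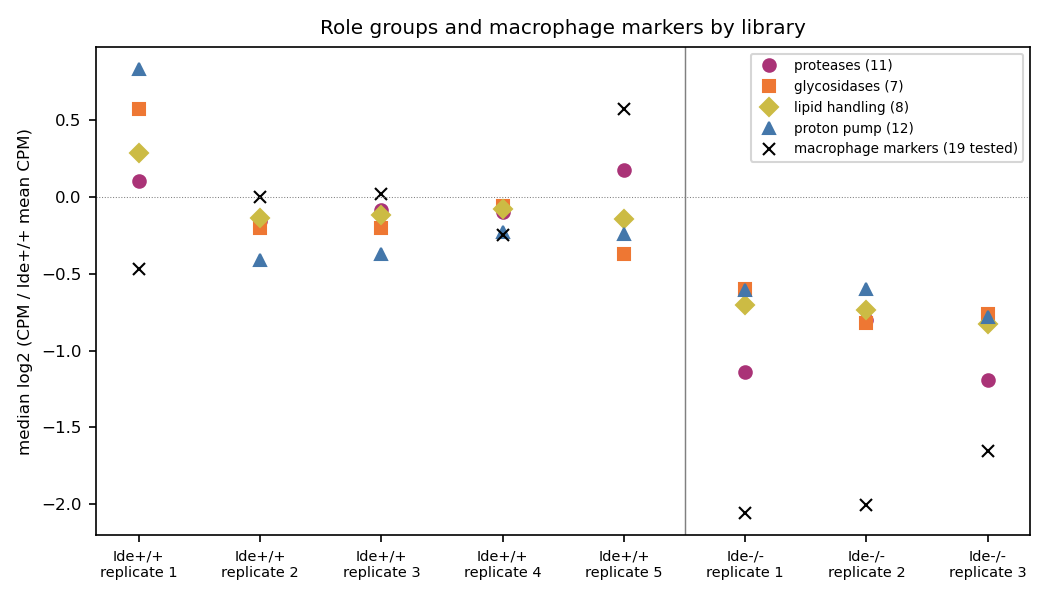
Median over genes of log2 CPM relative to the mean of the Ide+/+ libraries (y axis) for 4 role groups and 19 tested macrophage markers in each library (x axis), TMM-scaled. The pump genes sit at 0.83 in Ide+/+ replicate 1 and between −0.41 and −0.22 in the other 4. The macrophage markers are highest in Ide+/+ replicate 5 at 0.57, and all groups are lower in the Ide-/- libraries. That direction turned for 29 of 43 members on log2(TPM + 1) values, where the median of all genes was 0.50.

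Of 98 further lysosomal genes 87 were tested, with 17 lower (10.6% of all genes) and 4 higher (10.4%), and a median of −0.39. Among 34 tested hydrolases and cofactors 10 were lower and 1 higher. Ctss, the cathepsin of antigen-presenting cells, fell from 35.5 ± 11.6 CPM (SD, n = 5) to 6.53 ± 1.10 CPM (SD, n = 3), with a log2 fold change of −2.45 ± 0.28 (SE, edgeR adjusted p = 0.0005). It was highest in Ide+/+ replicate 5, at 56.3 CPM against 29.6 to 31.5 CPM in the other 4. Acp5, the tartrate-resistant phosphatase of macrophages and osteoclasts, fell by 2.63 on the log2 scale and the hyaluronidase gene Hyal2 by 0.97. Ids, the iduronate sulfatase gene, averaged 19.1 ± 3.14 CPM (SD, n = 5) in Ide+/+ and 30.8 ± 3.71 CPM (SD, n = 3) in Ide-/- libraries, a rise of 0.68 ± 0.19 (SE, edgeR adjusted p = 0.0267) on the log2 scale.

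Of 22 tested membrane and transport genes 4 were lower and 2 higher, against 10.6% and 10.4% of all genes. Laptm5, a lysosomal protein of blood cells, fell by 2.05, and Laptm4b, Cln8 and Tmem106b fell by 0.79, 0.65 and 0.78. The amino acid transporter genes Slc38a9, which signals arginine to mTORC1, and Slc36a1 rose by 0.86 and 0.81. Of 8 tested pump subunits 1 was lower, Tcirg1, a V0 isoform known from osteoclasts and immune cells but not limited to them (log2 fold change −0.92 ± 0.30 SE, edgeR adjusted p = 0.0491). Its genotypes overlapped, with 5.61 to 13.6 CPM in Ide+/+ and 4.13 to 6.85 CPM in Ide-/- libraries. The 1 higher was Atp6v1g2, the V1 isoform of neurons (log2 fold change 1.46 ± 0.33 SE, edgeR adjusted p = 0.0116). Of 23 tested genes of delivery and control 2 were lower, near the share of all genes (10.6%). They were Nagpa, which uncovers the mannose 6-phosphate tag, at −0.81 ± 0.24 (SE, edgeR adjusted p = 0.035), and the cathepsin inhibitor Cstb at −0.74 ± 0.22 (SE, edgeR adjusted p = 0.0342). The regulators Tfe3 and Mitf were not called, at 0.14 ± 0.24 (SE, edgeR adjusted p = 0.696) and 0.50 ± 0.27 (SE, edgeR adjusted p = 0.21), nor was Tfeb, which had 0.301 to 1.32 CPM in Ide+/+ and 0.183 to 0.407 CPM in the Ide-/- libraries (log2 fold change −1.41 ± 0.48 SE, edgeR adjusted p = 0.056). These 3 were named after their values were seen. On log2(TPM + 1) values Laptm4b, Tmem106b, Tcirg1, Nagpa and Cstb took the other sign.

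The members' median was below 0 with every scaling of counts that was run and above 0 on TPM values, which differ from counts in length correction, pseudocount and test as well as scaling. Scaled to 16 secretory granule genes, as a measure relative to endocrine RNA, the members' median was −0.58 and that of all genes 0.07. With this scaling 8 members were lower (Ctsb, Ctsc, Ctsd, Ctsl, Glb1, Hexa, Smpd1 and Grn) against 5.42% of all genes. Of the 16 scaling genes 3 were themselves higher and 0 lower with TMM (10.4% and 10.6% of all genes). Their summed level was 3904 to 7834 CPM in Ide+/+ and 4529 to 5953 CPM in Ide-/- libraries, so they are not a fixed reference. On log2(TPM + 1) values, tested with limma, the median of all genes moved to 0.50 and that of the members to 0.22, a difference of −0.28. Ctsc and Ctsl were then lower (2.55% of all genes) and Npc1, Ctsk and Ppt1 higher (36.4% of all genes), and 93.5% of all calls were higher against 49.6% with TMM. Of the members, 33 lay below the all-gene median with log2(TPM + 1), and 41 did so with TMM and with granule scaling. Summed over the 43 members, TPM ranged from 731 to 1302 over the Ide+/+ libraries and from 861 to 1382 over the Ide-/- libraries, so the genotypes overlapped.

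**Figure D5:**
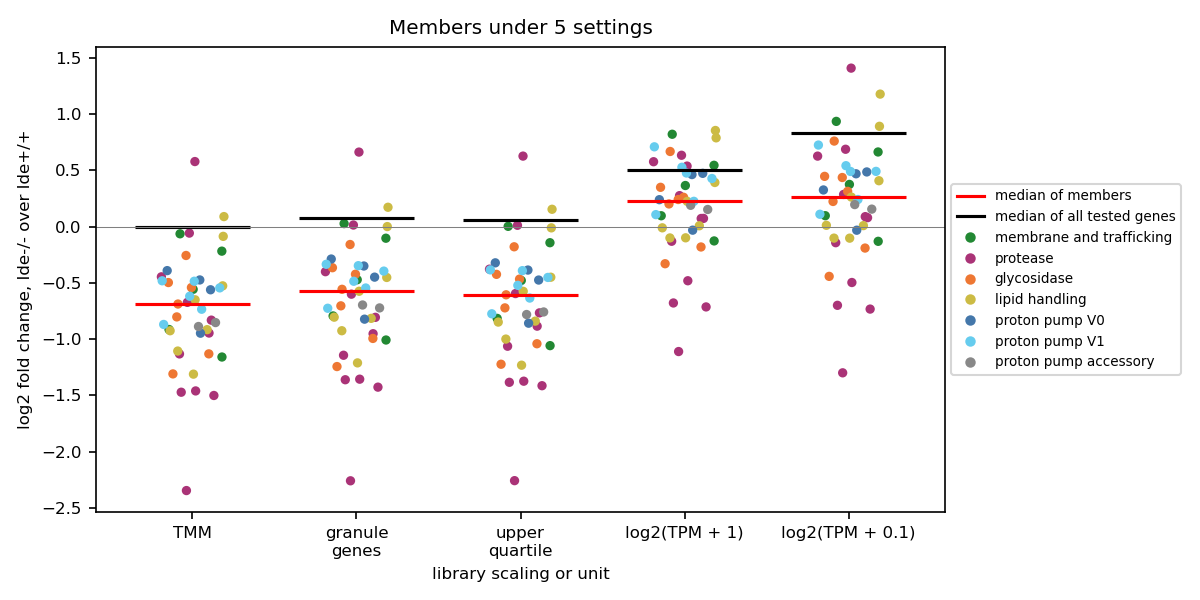
Log2 fold change of the 43 members (y axis, Ide-/- over Ide+/+, points coloured by role) with 3 library scalings of counts and on 2 TPM scales (x axis), with red lines at the median of the members and black lines at that of all tested genes. The red line lies below the black line in each column, but it is below 0 for the count scalings (−0.69 with TMM) and above 0 for TPM (0.22 with a pseudocount of 1).

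Per length, the most abundant member in both genotypes was Cd63, with 162 ± 27.9 TPM in Ide+/+ (SD, n = 5) and 175 ± 44.4 TPM in Ide-/- libraries (SD, n = 3). In Ide+/+ libraries Atp6v0c and Psap followed, and in Ide-/- libraries Atp6v0c, Atp6v0e and Psap. Atp6v0c had 82.7 ± 28.2 TPM in Ide+/+ (SD, n = 5) and 80.97 ± 30.96 TPM in Ide-/- libraries (SD, n = 3), and Psap had 71.8 ± 32.2 TPM in Ide+/+ (SD, n = 5) and 68.7 ± 21.3 TPM in Ide-/- libraries (SD, n = 3). Atp6v0e had 54.7 ± 11.2 TPM in Ide+/+ (SD, n = 5) and 74.6 ± 6.61 TPM in Ide-/- libraries (SD, n = 3). The spreads of these 3 overlapped in either genotype, so their order is not settled. Ctsb was the most abundant cathepsin gene in Ide+/+ libraries, at 51.5 ± 8.19 TPM, above Ctsl at 37.6 ± 4.64 TPM and Ctsd at 34.8 ± 9.17 TPM (SD, n = 5). In Ide-/- libraries these 3, Ctsz and Ctsa had means of 23.03 (Ctsl) to 32.6 TPM (Ctsb) and did not differ beyond their spread. The pump V1 subunits had means from 5.88 (Atp6v1a) to 37.03 TPM (Atp6v1e1) in Ide+/+ libraries. Ctsk and Gla were the least abundant, at 0.408 ± 0.325 and 0.924 ± 0.305 TPM in Ide+/+ libraries (SD, n = 5).

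The deposited tables give for each gene a mean transcript length, which RSEM weights by the estimated abundance of the annotated transcripts, so it moves when their estimated shares move. In 13 of the 39 members whose length varied by over 1 base (33.3%) the lengths of the genotypes did not overlap, against 13.8% of all such genes, with 8 shorter and 5 longer in Ide-/- islets. Man2b1 had a mean transcript length of 3171.1 ± 256 bases in Ide+/+ (SD, n = 5) and 2246.4 ± 154 bases in Ide-/- libraries (SD, n = 3). Grn had 1933.8 ± 35.4 bases in Ide+/+ (SD, n = 5) and 1635.0 ± 246 bases in Ide-/- libraries (SD, n = 3). Both were shorter in every Ide-/- library than in any Ide+/+ library. Ctsl and Ctsb went the other way, with 1735.4 ± 101 bases in Ide+/+ (SD, n = 5) and 1961.7 ± 109.8 bases in Ide-/- libraries (SD, n = 3) for Ctsl and 2452.9 ± 92.4 bases in Ide+/+ (SD, n = 5) and 2745.4 ± 247 bases in Ide-/- libraries (SD, n = 3) for Ctsb. No test was made, and which transcripts the shares concern was not analysed here.

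Some members share sequence or position with other genes, and the strand setting of the counting is not given in the sources used here. Ctsb overlaps Fdft1 on the opposite strand (means over 8 libraries of 137 and 17.95 CPM), Ctsz overlaps Nelfcd (37.0 and 14.3 CPM), Lamp1 overlaps Grtp1 (89.4 and 10.5 CPM), and Npc1 overlaps Rmc1 (6.32 and 14.95 CPM). Reads from such pairs cannot be told apart without strand. Glb1 overlaps Tmppe on its own strand (1.82 CPM). Atp6v0c and Cd63 have processed copies, at 1.04 CPM (Atp6v0c-ps2) and 4.11 CPM (Cd63-ps), so their counts are less certain than those of single-copy genes.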

How the data were processed

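RNA of 8 islet samples was sequenced after library preparation from 100 ng of RNA. Reads were aligned with STAR 2.7.1a and quantified with RSEM 1.3.1 on GRCm38, per the submitters' processing notes. Neither the annotation release nor the strand setting is given in the sources used here. The authors deposited, per sample, expected counts, TPM and FPKM (FPKM was not used) for each Ensembl gene, with a mean transcript length in bases. Symbols came from GENCODE M21, and 55227 of 55487 identifiers matched.

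Expected counts were rounded to whole numbers and tested with edgeR 4.0.16 (quasi-likelihood test, TMM scaling, filterByExpr with a minimum count of 10) in R 4.3.3, with Benjamini-Hochberg adjustment over 16266 genes and calls at an adjusted p under 0.05. Errors of log2 fold changes are SE from the F statistic. The test was checked on simulated counts. Alternatives were DESeq2 1.42.0, limma 3.58.1 (voom, and log2(TPM + 1) and log2(TPM + 0.1)), other scalings, no filter, a replicate block and leaving out each library. Values were given in full for called members and the 2 with the highest mean TPM in each role, and for up to 4 called genes per direction of each other lysosomal list, of which 1 is not reported here. Members and lists were chosen with earlier results of these data known.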

Additional observations from a re-analysis of the deposited data

Results flagged for a closer look

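In 17 of the 43 members Ide+/+ replicate 1 lay far above the other 4 Ide+/+ libraries, with a gap to the next that took more than 0.71 of the range of the group, Dixon's critical value for 5 samples. Chance gives such a gap in about 1 in 20 groups, and the members share their libraries. The share of all genes with such a gap is not given here, so it cannot be said to be particular to these members. Replicate 1 was the highest Ide+/+ library for 32.1% of all tested genes and 76.7% of the members. In CPM, replicate 1 had 223 for Lamp2 (others 71.2 to 109.5), 29.9 for Scarb2 (others 21.1 to 22.7), 66.6 for Ctsa (others 44.6 to 47.8), 4.81 for Gla (others 2.34 to 3.00), 76.6 for Hexa (others 32.7 to 43.7), 38.3 for Man2b1 (others 19.8 to 23.9), 166 for Asah1 (others 46.2 to 68.3), 203 for Atp6v0c (others 88.6 to 118), 96.8 for Atp6v0d1 (others 51.6 to 61.96), 61.8 for Atp6v1a (others 26.5 to 29.6), 213 for Atp6v1b2 (others 81.2 to 105), 138 for Atp6v1c1 (others 55.4 to 76.3), 105 for Atp6v1d (others 37.9 to 55.04), 117 for Atp6v1e1 (others 48.7 to 60.1), 99.7 for Atp6v1h (others 35.2 to 38.4), 206 for Atp6ap1 (others 88.3 to 96.5) and 243 for Atp6ap2 (others 72.5 to 96.3). Of these 17 genes, 10 were pump genes. Lamp2, Gla, Atp6ap1 and Atp6ap2 lie on the X chromosome and the others do not. Replicate 1 was also the only library with no Y-linked counts, and whether sex had a part was not tested. Mcoln1 stood apart in Ide+/+ replicate 5, where it was lowest at 8.58 CPM (others 12.6 to 13.9). Ctsh stood apart in Ide+/+ replicate 5, where it was highest at 17.8 CPM (others 7.92 to 10.2). Lgmn stood apart in Ide+/+ replicate 5, where it was highest at 29.7 CPM (others 13.3 to 17.1).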

How the results depend on the processing

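Against 17 members lower and 0 higher, DESeq2 gave 25 lower (13.5% of all genes), limma-voom 17 (10.4%) and upper-quartile scaling 17 (9.72%). With acinar genes left out of the scaling 17 were lower (10.6%), and with no low-count filter 16 (5.89%). No member was higher in these fits, where 5.27% to 12.5% of all genes were. Secretory granule scaling gave 8 lower (5.42%). With log2(TPM + 1) there were 2 lower and 3 higher (2.55% and 36.4%), and with log2(TPM + 0.1) 1 and 1 (2.39% and 29.1%). Leaving out each library in turn gave 5 to 20 members lower (4.75% to 13.3%) and 0 higher in each fit (4.07% to 13.4%). Of 87 other lysosomal genes tested, 17 were lower and 4 higher (10.6% and 10.4% of all genes). For them DESeq2 gave 26 lower (13.5%), and granule scaling 5 lower and 2 higher (5.42% and 5.00%). On log2(TPM + 1) values 3 were lower and 11 higher (2.55% and 36.4%), and on log2(TPM + 0.1) values 2 and 9 (2.39% and 29.1%). Leaving out each library gave 3 to 21 of them lower (4.75% to 13.3% of all genes) and 1 to 4 higher (4.07% to 13.4%). Granule scaling without Ide+/+ replicate 1 was chosen after seeing the data. It gave 10 members lower, and 9 other lysosomal genes lower and 2 higher, against 8.47% and 7.52% of all genes. The cause was not tested.

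The labels number replicates in both genotypes. Same-numbered libraries had correlations of their deviations of 0.0485, 0.00918 and −0.0934, so the numbers were not taken to pair samples. With a replicate block over replicates 1 to 3, 7 members and 5 other lysosomal genes were lower and 0 other lysosomal genes higher, where 4.02% of all genes were lower and 2.99% higher. The same libraries without the block, a fit chosen after seeing the data, gave 8, 6 and 1, where 4.87% of all genes were lower and 4.57% higher.

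The sign of the log2 fold change turned on both TPM scales for 34 named genes, given with pseudocounts of 1 and 0.1 in that order: Atp6ap1 (0.15, 0.15), Atp6ap2 (0.19, 0.19), Atp6v0a1 (0.24, 0.32), Atp6v0d1 (0.47, 0.48), Atp6v0e (0.46, 0.47), Atp6v1a (0.43, 0.49), Atp6v1b2 (0.71, 0.72), Atp6v1c1 (0.48, 0.49), Atp6v1d (0.53, 0.54), Atp6v1e1 (0.11, 0.11), Atp6v1h (0.22, 0.24), Cd63 (0.096, 0.096), Cstb (0.18, 0.18), Ctsa (0.27, 0.28), Ctsf (0.58, 0.63), Ctsh (0.071, 0.088), Ctsz (0.072, 0.079), Gaa (0.35, 0.45), Gla (0.24, 0.44), Gm2a (0.22, 0.26), Gusb (0.20, 0.22), Lamp1 (0.36, 0.37), Laptm4b (0.21, 0.23), Man2b1 (0.67, 0.76), Mcoln1 (0.82, 0.93), Nagpa (0.53, 0.73), Neu1 (0.26, 0.31), Npc2 (0.39, 0.41), Ppt1 (0.85, 0.89), Psap (0.0067, 0.0079), Scarb2 (0.54, 0.66), Tcirg1 (0.17, 0.25), Tmem106b (0.20, 0.24) and Tpp1 (0.63, 0.69). Smpd1 turned with 0.1 alone (0.011). Mcoln1 and Tpp1, both near 0, also turned with granule scaling (0.026 and 0.013) and upper-quartile scaling (0.0015 and 0.011), and Tpp1 over the fits that left out a library ran from −0.17 to a turned sign without Ide-/- replicate 3 (0.015). Members had a median of 677 counts per library, and Ctsk as few as 1, so changes in Ctsk were hardly detectable. In simulated counts of 16200 genes for the Ide-/- against Ide+/+ comparison, 30.9% of 2-fold and 94.8% of 4-fold changes were called, so smaller changes can be missed. The simulation changed only a small part of the genes, gave all genes the same dispersion and held no acinar difference. The shares called in the real data may therefore differ.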
